A study of Mus musculus with 6 samples.

Results

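MUT cells, left with an editing-dead Adar allele, were compared with HET cells, which also kept a floxed one, over all genes that either of them expressed on day 7 of reprogramming. The study took mouse embryonic fibroblasts, gave them OSKM (the pluripotency factors Oct4, Sox2, Klf4 and Myc) and sequenced total RNA freed of ribosomal RNA. HET was Adar1 Fl/E861A with vehicle (Veh, 1 library) and MUT was Adar1 Fl/E861A with 4OHT (1 library). WT was Adar1 Fl/Fl with vehicle (2 libraries) and KO was Adar1 Fl/Fl with 4OHT (2 libraries). 4OHT, 4-hydroxytamoxifen, is commonly used to switch on an inducible Cre recombinase that deletes floxed sequence. The labels name neither the Cre driver nor the deleted exons, and no group received 4OHT with an Adar locus that 4OHT could not affect. HET already carried 1 E861A allele and MUT had also lost the floxed one, so allele dose, the amino acid change and 4OHT cannot be told apart by setting MUT against HET. Of 23406 gene symbols, 9490 stood at 5 FPKM or more in HET or in MUT and make up the comparison. FPKM is fragments scaled to transcript length and to the size of the library. Differences are given as MUT minus HET on the log2(FPKM + 1) scale, which understates the change of low genes.

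ADAR1, the product of Adar, turns adenosine into inosine in double-stranded RNA. Unedited double-stranded RNA of the cell can be taken for viral RNA by the sensors MDA5 and PKR and by OAS enzymes. MDA5 leads to type I interferon and its antiviral genes, and PKR phosphorylates eIF2 alpha, which slows protein synthesis and favours translation of the transcription factor ATF4. The same eIF2 alpha phosphorylation is set off by the endoplasmic reticulum stress sensor PERK, by the amino acid sensor GCN2 and by HRI. The E861A change sits in the deaminase domain and is known to abolish editing while protein is still made. In reprogramming, fibroblasts lose mesenchymal genes, pass through a mesenchymal-to-epithelial transition and then switch on the pluripotency network.

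With 1 library on each side MUT against HET was not tested, and the size of differences was read against the replicate pairs. Between HET and MUT, 1284 of 9490 genes (13.5%) were 2-fold or more apart, 500 higher in MUT (5.27%) and 784 lower (8.26%). The same fold separated 5 of 9180 genes between the WT libraries (0.0545%) and 9 of 8861 between the KO libraries (0.102%). Of the 1284 genes, 1273 also differed by over 2 times the larger of their own replicate differences. The other 11 did not, among them Asf1b, Ccne2, Slc38a4 and a row shared by Oas1a and Oas1g. Within 1.2-fold either way lay 3570 genes (37.6%), and the median difference over all 9490 genes was 0.02. At 4-fold, 75 genes were higher and 224 lower in MUT; at 8-fold, 11 and 59; at 16-fold, only Cdsn was higher and 11 were lower. In every band of expression the median absolute difference between HET and MUT, 0.325 to 0.398 on the log2 scale, was above that of the WT pair, 0.074 to 0.117, and the KO pair, 0.106 to 0.138. The rule of 5 FPKM in either library shapes the counts: of the genes higher in MUT, 159 reached it in MUT alone, and of those lower, 378 reached it in HET alone. At the edge of the fold rule stood Leprotl1 (1.0, inside) and Atp6v1h (1.0, just outside) among higher genes, and Znhit3 (-1.0, inside) and Zfp428 (-1.0, just outside) among lower genes. The labels do not say whether the WT and KO libraries came from separate cultures, so their spread may be technical.

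**Figure D1:**
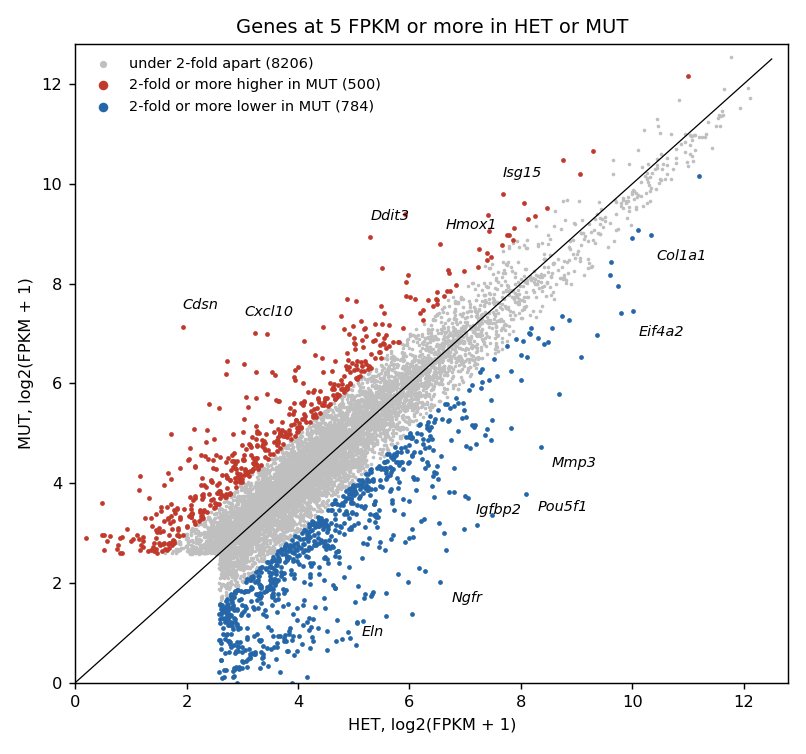
Level of each of 9490 genes in HET (horizontal axis) and in MUT (vertical axis), both as log2(FPKM + 1), 1 library each; the line marks equal levels. Red points are the 500 genes 2-fold or more higher in MUT and blue points the 784 lower, with Cdsn farthest above the line and Eln and Ngfr farthest below it.

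**Figure D2:**
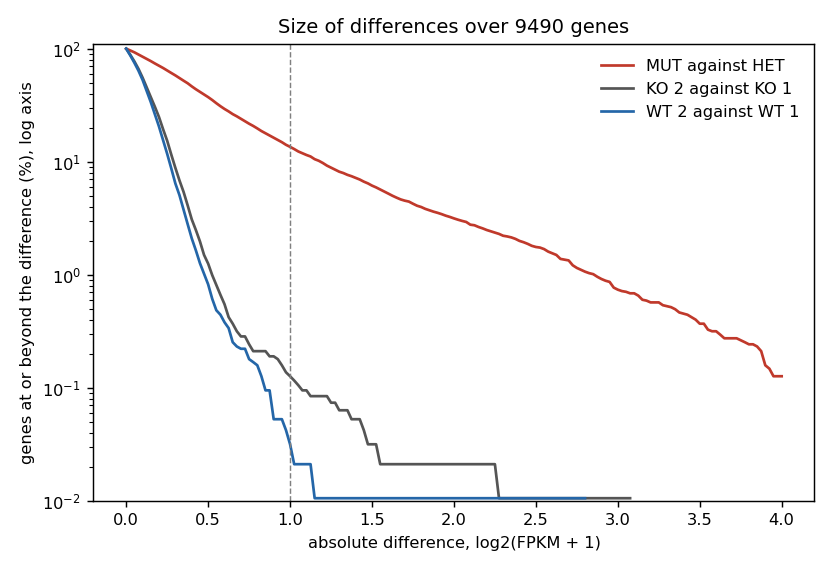
Share of the 9490 genes (log axis) at or beyond each absolute log2 difference, for MUT against HET and for both replicate pairs; the dashed line is 2-fold. The curve of MUT against HET crosses that line at 13.5%, far above those of the WT and KO replicates.

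The files hold FPKM and no counts, so the depth is unknown; the 10 highest genes held 6.24% of named FPKM in HET and 6.67% in MUT, the highest share of the 6 libraries. The gene lists below name 961 symbols, of which 737 reached 5 FPKM on a row of their own and 55 shared a row with other genes. Adar itself gives no check of the labels. It was at 17.0 FPKM in HET and 33.0 in MUT, at 19.6 and 19.5 in WT and at 34.2 and 31.3 in KO, so each 4OHT library was above each vehicle library. A value for the whole protein-coding gene (chromosome 3 of GRCm38, from 89715022 to 89753446 on the plus strand) tells neither the E861A allele from the floxed one nor a deleted exon from an intact one. Every direction below rests on the labels. Adarb1, which encodes the related deaminase ADAR2, was under the minimum of the comparison, at 3.54 FPKM in HET and 1.61 in MUT. Of the tRNA deaminase genes, Adat1 stood at 5.32 and 2.94 FPKM and Adat2 at 10.3 and 6.30. Apobec3, a cytidine deaminase, stood at 15.3 and 14.6 FPKM.

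Promoters are shown for 3 groups of genes that the results turn on, since each group is known for a short sequence near its start sites. RefSeq promoter windows on GRCm38.p6 were found for 7035 of the 9490 genes and searched on both strands. The shares below count matches over the whole window, which reaches a short way past the start site. The printed sequences show only the 250 bases before it. GAAA, any 2 bases and GAAA again form the core of the interferon-stimulated response element, bound by STAT and IRF factors. It was present in 16 of 39 genes of the antiviral lists below (41.0%) and in 47 of 359 genes 2-fold or more higher in MUT (13.1%). Among genes lower in MUT it was present in 17 of 562 (3.02%). Its share was 3.7% of all genes of the comparison with a window and 3.44% of all 32851 windows. Neighbouring matches of this motif can overlap, as in Isg15. Its matches are in capitals in the following upstream sequences of an antiviral modifier, an antiviral enzyme and a T cell attractant, written 5′ to 3′ in the direction of the gene, Isg15 from chr4:156200819-156201068 (minus strand), Rsad2 from chr12:26456453-26456702 (minus strand) and Cxcl10 from chr5:92348890-92349139 (minus strand).
Isg15: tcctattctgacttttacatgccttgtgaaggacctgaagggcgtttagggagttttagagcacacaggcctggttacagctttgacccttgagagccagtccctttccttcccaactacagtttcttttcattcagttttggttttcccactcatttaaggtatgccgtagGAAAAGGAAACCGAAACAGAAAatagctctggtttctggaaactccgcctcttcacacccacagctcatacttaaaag
Rsad2: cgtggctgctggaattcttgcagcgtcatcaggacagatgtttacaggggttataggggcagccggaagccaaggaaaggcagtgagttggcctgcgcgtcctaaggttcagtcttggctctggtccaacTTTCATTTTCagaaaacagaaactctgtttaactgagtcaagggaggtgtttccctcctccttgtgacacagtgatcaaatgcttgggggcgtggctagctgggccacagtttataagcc
Cxcl10: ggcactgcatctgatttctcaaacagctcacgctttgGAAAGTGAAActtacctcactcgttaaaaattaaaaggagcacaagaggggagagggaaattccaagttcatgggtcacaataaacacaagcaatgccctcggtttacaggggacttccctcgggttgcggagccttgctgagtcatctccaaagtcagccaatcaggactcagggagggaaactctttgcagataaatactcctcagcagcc
No match lay in the 250 bases before the start sites of Oasl1, Cmpk2, Ifit2 and Cd274, which were also higher in MUT.

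TGATGNAA is the core of the C/EBP-ATF response element, bound by ATF4 and its partners. The letters were shortened by 1 base after a first search of these windows. It was present in 7 of 19 genes of the ATF4 and CHOP list (36.8%) and in 4 of 10 tRNA synthetase genes (40.0%). Of amino acid synthesis and one-carbon genes 3 of 13 held it (23.1%), and of amino acid transporters 1 of 9 (11.1%). Among genes higher in MUT it was present in 24 of 359 (6.69%), and among those lower in 18 of 562 (3.2%). Its share was 2.6% of all genes of the comparison and 3.97% of all windows. The following upstream sequences of a glutathione-degrading enzyme, a cystine transporter and a stress transcription factor hold it in capitals, Chac1 from chr2:119350992-119351241 (plus strand), Slc7a11 from chr3:50443614-50443863 (minus strand) and Atf3 from chr1:191183334-191183583 (minus strand).
Chac1: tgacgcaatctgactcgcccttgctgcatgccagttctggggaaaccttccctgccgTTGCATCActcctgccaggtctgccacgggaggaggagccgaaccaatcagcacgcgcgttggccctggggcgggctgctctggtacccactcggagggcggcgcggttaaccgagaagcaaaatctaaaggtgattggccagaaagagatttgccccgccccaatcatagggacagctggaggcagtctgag
Slc7a11: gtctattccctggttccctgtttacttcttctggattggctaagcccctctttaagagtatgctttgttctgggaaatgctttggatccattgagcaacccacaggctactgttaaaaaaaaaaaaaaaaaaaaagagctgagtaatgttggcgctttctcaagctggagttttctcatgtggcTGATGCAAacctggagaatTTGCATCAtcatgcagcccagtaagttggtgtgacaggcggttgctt
Atf3: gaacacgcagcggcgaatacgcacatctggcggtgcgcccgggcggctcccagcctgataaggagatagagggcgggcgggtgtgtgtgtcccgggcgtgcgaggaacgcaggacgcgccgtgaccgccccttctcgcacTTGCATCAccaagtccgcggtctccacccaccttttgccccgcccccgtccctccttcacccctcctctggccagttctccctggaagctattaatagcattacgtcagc
The 250 bases before the start sites of Ddit3, Trib3 and Slc6a9 held no match.

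TTTGAA is the cell cycle homology region, through which the DREAM and MMB complexes act on genes of mitosis. It was present in 17 of 24 mitotic genes (70.8%) and 3 of 25 replication genes (12.0%). Among genes 2-fold or more lower in MUT it was present in 132 of 562 (23.5%), and among those higher in 53 of 359 (14.8%). Its share was 13.5% of all genes of the comparison with a window and 17.9% of all windows. As 6 letters on both strands it is common, and a match is a description only. The upstream sequences of the mitotic kinase Cdk1, the ubiquitin-conjugating enzyme Ube2c and the cyclin Ccnb2 hold it in capitals, Cdk1 from chr10:69352913-69353162 (minus strand), Ube2c from chr2:164769679-164769928 (plus strand) and Ccnb2 from chr9:70421555-70421804 (minus strand).
Cdk1: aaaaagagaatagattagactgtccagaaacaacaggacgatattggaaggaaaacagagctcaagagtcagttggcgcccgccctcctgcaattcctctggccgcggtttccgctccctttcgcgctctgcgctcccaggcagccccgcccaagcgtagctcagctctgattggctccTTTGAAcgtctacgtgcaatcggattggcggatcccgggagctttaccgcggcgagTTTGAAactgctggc
Ube2c: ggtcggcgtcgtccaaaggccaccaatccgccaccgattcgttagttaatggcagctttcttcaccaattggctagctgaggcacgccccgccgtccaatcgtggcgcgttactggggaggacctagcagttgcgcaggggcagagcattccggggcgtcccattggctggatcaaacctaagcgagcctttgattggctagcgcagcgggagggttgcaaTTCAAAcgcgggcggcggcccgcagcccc
Ccnb2: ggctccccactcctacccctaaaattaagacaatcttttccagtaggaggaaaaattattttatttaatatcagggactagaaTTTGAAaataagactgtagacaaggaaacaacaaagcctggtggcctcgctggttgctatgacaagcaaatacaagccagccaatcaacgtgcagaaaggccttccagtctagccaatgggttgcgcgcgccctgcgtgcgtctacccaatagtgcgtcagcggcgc
The 250 bases before the start sites of Ccnb1, Plk1, Aurka, Cenpa, Birc5 and Mybl2 held no match. The shares above also count the bases past the start site, so these genes may be among those with a match.

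Sensors of double-stranded RNA that are themselves interferon-induced were higher in MUT, and the adaptors and kinases downstream of them were not. Ifih1, which encodes MDA5, was at 6.15 FPKM in HET and 30.7 in MUT. Ddx58, which encodes RIG-I, stood at 22.7 and 63.3 FPKM. Zbp1, a sensor of Z-form nucleic acid, stood at 15 and 79.4 FPKM, and Tlr3, the endosomal sensor, at 2.54 and 10.3. Irf7, which amplifies interferon transcription, stood at 44.1 and 187 FPKM. The adaptor Mavs was at 22.3 and 15 FPKM, the kinase Tbk1 at 19.4 and 19.7, and Irf3 at 17.2 and 19.3. Of 17 sensors and adaptors at 5 FPKM, 6 were 2-fold or more higher and none lower, with a median of 0.41, against 0.02 over all genes. PKR was not resolved: its gene Eif2ak2 shares a row with Sult6b1, which was at 34.0 FPKM in HET and 74.6 in MUT.

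Lists of interferon-induced effector genes differed in their medians, from 2.33 for the GTPases to 0.53 for the IFIT and IFITM families. Of 19 interferon-inducible GTPases listed, 8 reached 5 FPKM on a row of their own, 2 of them in 1 library only, and the 8 were 2-fold or more higher in MUT (median 2.33). So were the 5 of 9 OAS family genes that reached it (median 1.90) and 26 of 31 other antiviral genes (median 1.57, with 1 lower). Mx1, a GTPase that traps viral nucleoproteins, was at 4.28 FPKM in HET and 46.7 in MUT, and Gbp2, which attacks pathogen vacuoles, at 10.6 and 73.9. Oasl1 stood at 2.31 and 30.8 FPKM and Oas3, which makes the 2-5A activator of RNase L, at 0.55 and 6.71. Rsad2, which encodes viperin, stood at 5.56 and 71.6 FPKM, Cmpk2 beside it at 4.98 and 44.4, and Usp18, the brake on ISG15 conjugation and on the interferon receptor, at 26.3 and 161.2. In the IFIT and IFITM families, 5 of 10 listed genes reached 5 FPKM, of which 2 were higher and 1 lower (median 0.53, with 0.02 for KO minus WT). Ifit2, which binds viral RNA, stood at 7.16 and 82.5 FPKM, and a row shared by Ifit3 and Ifit3b at 59.5 and 673. The members of this group were not uniform: Ifitm1 was at 11.5 FPKM in HET and 2.41 in MUT, and Ifi27l2a at 138 and 34.8. Both were also low in KO, at 2.45 and 1.43 FPKM for Ifitm1 against 19.7 and 12.1 in WT, and at 2.70 and 3.92 for Ifi27l2a against 24.9 and 17.6. Several rows name paralogs together (Tgtp1 with Tgtp2, Igtp with Irgm2, Gbp4 with Gbp6 and Gbp9), and reads of close paralogs may be split between other rows too.

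Signal transducers of the interferon pathway stood apart from its receptors. Stat2 was at 24.4 FPKM in HET and 86.9 in MUT, and Irf1 at 13.4 and 44.7. The receptor chains Ifnar1, at 11.7 in both, and Ifnar2, at 27.1 and 45, were under 2-fold apart, as was the feedback inhibitor Socs1, at 9.23 and 13.9. Of 16 receptors and transducers, 4 were 2-fold or more higher and none lower (median 0.71). The gene of interferon beta, Ifnb1, was below the minimum: it was listed at 0 in HET and stood at 1.56 FPKM in MUT, against 0.10 and 0.35 in WT and 2.91 and 1.29 in KO. In class I antigen presentation, 8 of 13 members were 2-fold or more higher and none lower (median 1.05). B2m, the light chain of every class I molecule, was at 2032 FPKM in HET and 4550 in MUT, the immunoproteasome subunit Psmb8 at 34.9 and 105, and Nlrc5, the transactivator of class I genes, at 3.17 and 12.3. The constitutive proteasome subunits gave the contrast, with none of 31 at 2-fold and a median of -0.16.

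HET was not at the WT level in these groups. The median of HET minus WT was -0.63 for the GTPases, -0.46 for the other antiviral genes and -0.50 for class I presentation, whereas MUT minus KO was 0.15, 0.07 and 0.13. The differences of MUT from HET were therefore wider than those of KO from WT, whose medians were 1.70, 1.11 and 0.57. The WT libraries also differed among themselves, with medians of WT 2 minus WT 1 of 0.48 for the GTPases, 0.14 for the other antiviral genes and 0.01 for class I presentation. For example, Rsad2 stood at 9.18 and 17.1 FPKM in WT and at 84.4 and 73.5 in KO, so its HET level of 5.56 was the lowest of the 6 libraries and its MUT level was close to KO.

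Among chemokines and cytokines, 8 of 17 were 2-fold or more higher in MUT and 2 lower (median 0.94). Cxcl10, which attracts T cells, was at 8.40 FPKM in HET and 128 in MUT, Ccl5 at 5.61 and 86.9, and the monocyte attractants Ccl2 and Ccl7 at 103 and 310 and at 60.2 and 261. Ccl20 stood at 1.25 and 16.6 FPKM and Csf1, the macrophage growth factor, at 39.6 and 115. The alarmin Il33 was lower, at 6.12 and 1.10 FPKM, and so was the membrane-bound chemokine Cx3cl1, at 24.4 and 8.71. Genes that carry out cell death were less far apart, with 3 of 20 higher and none lower (median 0.46). Those 3 were Casp4, the caspase that senses lipopolysaccharide, at 7.00 and 26.1 FPKM, Mlkl, which forms the necroptotic pore, at 12.2 and 29.8, and Casp12 at 15 and 33.9.

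The ATF4 and CHOP branch of the stress response was higher in MUT, while chaperones of the endoplasmic reticulum were not. Ddit3, which encodes CHOP, was at 38.4 FPKM in HET and 484 in MUT, with 54.5 and 52.0 in WT and 761 and 743 in KO. Chac1 stood at 8.54 and 73.7 FPKM, Trib3, a pseudokinase that restrains ATF4, at 14.4 and 75.9, Nupr1 at 61.9 and 286, and Slc7a11, the cystine importer, at 1.5 and 12.0. Of 21 regulators and targets, 14 were 2-fold or more higher and none lower (median 1.38, with 1.46 for KO minus WT). Atf4 itself was at 151 and 178 FPKM, a difference of 0.24; it is chiefly controlled in translation. Of 17 endoplasmic reticulum chaperones none was 2-fold apart (median -0.03), with Hspa5, which encodes BiP, at 247 and 346 FPKM, Calr at 488 and 467 and Pdia4 at 102 and 100. Of 24 stress sensors, ERAD components and XBP1 targets, Herpud1 alone was 2-fold apart, at 16.8 and 36.5 FPKM. Xbp1 stood at 21.2 and 29.1 FPKM. Ero1l, an oxidase of that compartment in the ATF4 and CHOP list, stood at 29.2 and 79.1 FPKM. The median chaperone difference was -0.54 in KO against WT, and the median of HET minus WT was -0.30.

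Genes of amino acid supply, many of them known ATF4 targets, were uneven. Aldh1l2, a mitochondrial folate enzyme, was at 5.03 FPKM in HET and 21.9 in MUT, and Slc6a9, a glycine transporter, at 4.61 and 28.6. The serine synthesis genes Phgdh and Psph were under 2-fold apart, at 84.4 and 155 and at 13.7 and 24.8 FPKM, as was Asns, asparagine synthetase, at 62.7 and 104. Shmt1 and Mthfd1, cytosolic folate enzymes, were lower, at 32.7 and 8.24 and at 64.8 and 22.7 FPKM, and so was Cth, which makes cysteine from cystathionine, at 65.0 and 28.8. In all, 1 of 17 amino acid synthesis and one-carbon genes was 2-fold or more higher and 4 lower (median 0.26), 1 of 17 cytosolic tRNA synthetases was higher (Wars, at 35.7 and 86.9 FPKM; median 0.40), and 2 of 12 amino acid transporters were higher and 1 lower (median 0.24). KO minus WT medians of the same members were 0.72, 0.77 and 0.72. In the same order, HET minus WT medians were 0.44, 0.21 and 0.09, and MUT minus KO medians were -0.13, -0.19 and -0.03. Of 17 NRF2 and redox genes 3 were 2-fold or more higher, 1 lower and 13 between (median 0.23, with 0.54 for KO minus WT). The higher ones were Hmox1, heme oxygenase 1, at 92.7 and 441 FPKM, Txnrd1 at 104 and 293 and Srxn1 at 32.4 and 77.3. Gpx2, a glutathione peroxidase of epithelia, was lower, at 21.8 and 0.57. Cytosolic heat shock genes had a median of -0.03, with Cryab at 36.4 and 123 FPKM and Hspa8 at 1416 and 1038.

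Genes of the pluripotency network were the lowest group in MUT. Of 26 members at 5 FPKM, 22 were 2-fold or more lower and 2 higher (median -2.82); 18 of the 26 passed the minimum through 1 library only, so their direction was partly set by the rule. Tdgf1, a Nodal co-receptor, was at 146 FPKM in HET and 7.92 in MUT, Utf1, a chromatin factor of embryonic stem cells, at 71.0 and 3.90, and L1td1 at 99.9 and 5.28. Esrrb stood at 9.38 and 0.48 FPKM, Sall4 at 11.4 and 0.73, and the ligands Nodal and Lefty2 at 11.4 and 0.65 and at 16.9 and 1.31. Nanog, at 17.6 FPKM in HET and 0.62 in MUT, stood at 20.8 and 15.2 in WT and 0.20 and 0.12 in KO. The 2 higher members were the factors Klf4, at 21.3 and 51.2 FPKM, and Myc, at 14.6 and 37.7, which are OSKM factors like Pou5f1 (272 and 12.84) and Sox2 (14.8 and 1.84); the values do not separate introduced copies from endogenous ones. In bulk RNA, fewer cells of a type and less RNA per cell cannot be told apart. The 8 pluripotency markers summed to 622 FPKM in HET and 43.6 in MUT, against 620 and 494 in WT and 30.0 and 15.6 in KO, so no 4OHT library came near a vehicle library.

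Epithelial genes were lower in MUT, with exceptions in the epidermal set. Of 17 junction and epithelial genes, 14 were 2-fold or more lower and none higher (median -2.46); 11 of the 17 passed through 1 library only. Cdh1, which encodes E-cadherin, was at 35.7 FPKM in HET and 2.44 in MUT, Cldn4, a tight junction claudin, at 24.4 and 2.71, Esrp1, the epithelial splicing regulator, at 7.75 and 0.41, and the protease St14 with its inhibitors Spint1 and Spint2 at 16.3 and 2.14, 9.30 and 0.42, and 83.9 and 14.3. The scaffold Tjp1 and the junctional molecule F11r, both also made by fibroblasts, were at 19.4 and 22.9 and at 20.7 in each. Of 9 keratin and epidermal genes at 5 FPKM, 5 of which passed through 1 library only, 2 were higher and 5 lower (median -1.05). Among the lower ones were Krt8 at 54.7 and 3.50 FPKM and Krt17 at 38.9 and 2.45. Cdsn, which encodes corneodesmosin of the outer epidermis (chromosome 17, 35552128 to 35557180, plus strand), had the largest difference of all genes, at 2.81 and 139 FPKM, with 16.8 and 18.4 in WT and 290 and 263 in KO. Krt7, a keratin of simple epithelium, was also higher, at 0.75 and 6.45 FPKM, while Krt19 stood at 33.8 and 30.3.

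Mesenchymal genes split by class. Transcription factors of the mesenchymal state were level or higher: Zeb2 was at 3.24 FPKM in HET and 9.47 in MUT, Foxc2 at 6.59 and 16.6, Snai2 at 15 and 28.7, Twist1 at 73.6 and 94.8, and Snai1 at 21.6 and 20.6. N-cadherin, from Cdh2, stood at 21.1 and 48.5 FPKM. Ngfr, a neurotrophin receptor, was lower, at 92.6 and 3.07 FPKM, as were Pdgfra at 37.5 and 15.5 and S100a4 at 1014 and 484. In that list 3 of 23 were higher and 3 lower (median 0.36). Of 17 contractile genes, 6 were 2-fold or more higher in MUT, 1 lower and 10 between (median 0.88). In KO against WT 2 of the same members were 2-fold or more higher and 0 lower (median 0.80). The median of HET minus WT was -0.47 and that of MUT minus KO was -0.33. In HET and MUT Cald1, caldesmon, stood at 126 and 304 FPKM, Tpm1 at 234 and 554, Cnn1 at 6.30 and 16.2 and Acta2 at 163 and 326. Mylk, the kinase of myosin light chain, stood at 6.0 and 2.19. Thbs1, a matricellular thrombospondin, stood at 172 and 530 FPKM, Inhba at 14.1 and 42.5 and Grem1, a BMP antagonist, at 44.6 and 315.

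Structural matrix genes were mixed to low. None of 27 collagen and collagen-processing genes was 2-fold higher and 10 were lower (median -0.52): Col3a1 was at 857 FPKM in HET and 245 in MUT, Col1a1 at 1290.0 and 504, Col6a1 at 356 and 112 and Col6a2 at 256 and 66.0. Of 28 elastic fibre, proteoglycan and matricellular genes, 3 were higher and 9 lower (median -0.37). Eln, elastin, stood at 65.1 and 1.61 FPKM, Postn, periostin, at 411 and 54.5, Lum, lumican, at 175 and 28.2, and Dcn, decorin, at 93.9 and 22.3. Fbln2, a basement membrane fibulin, was higher, at 264 and 787 FPKM, and Fbln5 at 26.2 and 58.5. Of 16 matrix metalloproteinase and inhibitor genes, 4 were 2-fold or more higher, 2 lower and 10 between (median 0.20). Mmp3, stromelysin, stood at 327 and 25.4 FPKM and Mmp2, a gelatinase, at 375 and 137. The inhibitors Timp2 and Timp3 stood at 353 and 733 and at 101.1 and 231. Fibroblast markers summed to 4780 FPKM in HET and 3414 in MUT, against 5310 and 4941 in WT and 2531 and 2542 in KO; the part of cell number in the matrix values was not tested. Among markers of other cell types, neural ones summed to 220 FPKM in HET and 58.1 in MUT with 7 of 13 under 1 in every library, and muscle ones to 58.7 and 13.7 with 8 of 12 under 1. Macrophage ones on rows of their own summed to 52.7 and 23.8, with Ptprc, Csf1r and Adgre1 under 1 in every library. The macrophage sum was 29.75 and 26.86 FPKM in WT, so HET stood above both, and 12.32 and 10.25 in KO. Primitive endoderm and trophoblast markers were higher in MUT, at 6.755 and 10.43 FPKM with 7 of 11 under 1. They summed to 8.674 and 8.994 in WT and 17.22 and 15.93 in KO. Sums of endothelial, adipocyte, keratinocyte, and chondrocyte and bone markers were lower in MUT.

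Proliferation genes were lower in MUT. The 29 of 30 mitotic and G2 genes that reached 5 FPKM, 5 of them in 1 library only, were each 2-fold or more lower (median -1.72), and 23 of 31 replication genes (median -1.18), with none higher in either. Mybl2, the B-MYB subunit of the mitotic activator, was at 62.2 FPKM in HET and 6.51 in MUT, Ccnb1, cyclin B1, at 111 and 18.7, Plk1 at 85.0 and 16.7 and Mki67, the proliferation antigen Ki-67, at 21.9 and 7.13. Rrm2, which makes deoxynucleotides, stood at 162 and 30.4 FPKM, Mcm5, of the replicative helicase, at 67.0 and 15.8 and Pcna, the sliding clamp, at 286 and 125. HET was above WT in both lists, by medians of 0.43 and 0.42, and MUT was above KO, by 0.88 and 0.60. Inhibitors of the cycle were less far apart: 5 of 25 inhibitor and p53 target genes were higher and none lower (median 0.31), with Gadd45a at 31.0 and 111 FPKM, Gadd45g at 35.8 and 137, Mdm2 at 55.2 and 113, Cdkn1a, which encodes p21, at 248 and 426 and Cdkn2a at 160.0 and 217.

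Metabolic and organelle genes were partly apart and partly level. Of 22 cholesterol synthesis genes 9 were 2-fold or more lower and none higher (median -0.81): Dhcr7, a reductase late in the pathway, was at 23.6 FPKM in HET and 5.64 in MUT, and Insig1, a target and inhibitor of SREBP, was at 49.7 and 17.6. Of 23 glycolysis and hypoxia genes 6 were lower (median -0.41), led by the glucose transporter Slc2a3, at 125 and 7.51 FPKM, and by Aldoc, at 6.93 and 0.65, while Gapdh stood at 2533 and 1965. Of 23 lysosome genes 10 were 2-fold or more higher in MUT and 1 lower (median 0.91). In KO against WT 1 of the same members was 2-fold or more higher and 1 lower (median 0.52). The median of HET minus WT was -0.51 and that of MUT minus KO was -0.06. In HET and MUT the proteases Ctsd and Ctsb stood at 630 and 1611 and at 231 and 470 FPKM. The membrane protein Lamp1 stood at 214 and 500, and Tfeb, a regulator of lysosome genes, at 10.5 and 4.36. None of 44 cytosolic ribosomal protein genes and none of 30 oxidative phosphorylation genes was 2-fold apart (medians -0.24 and -0.24; the first was -0.07 after quantile normalization).

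**Figure D3:**
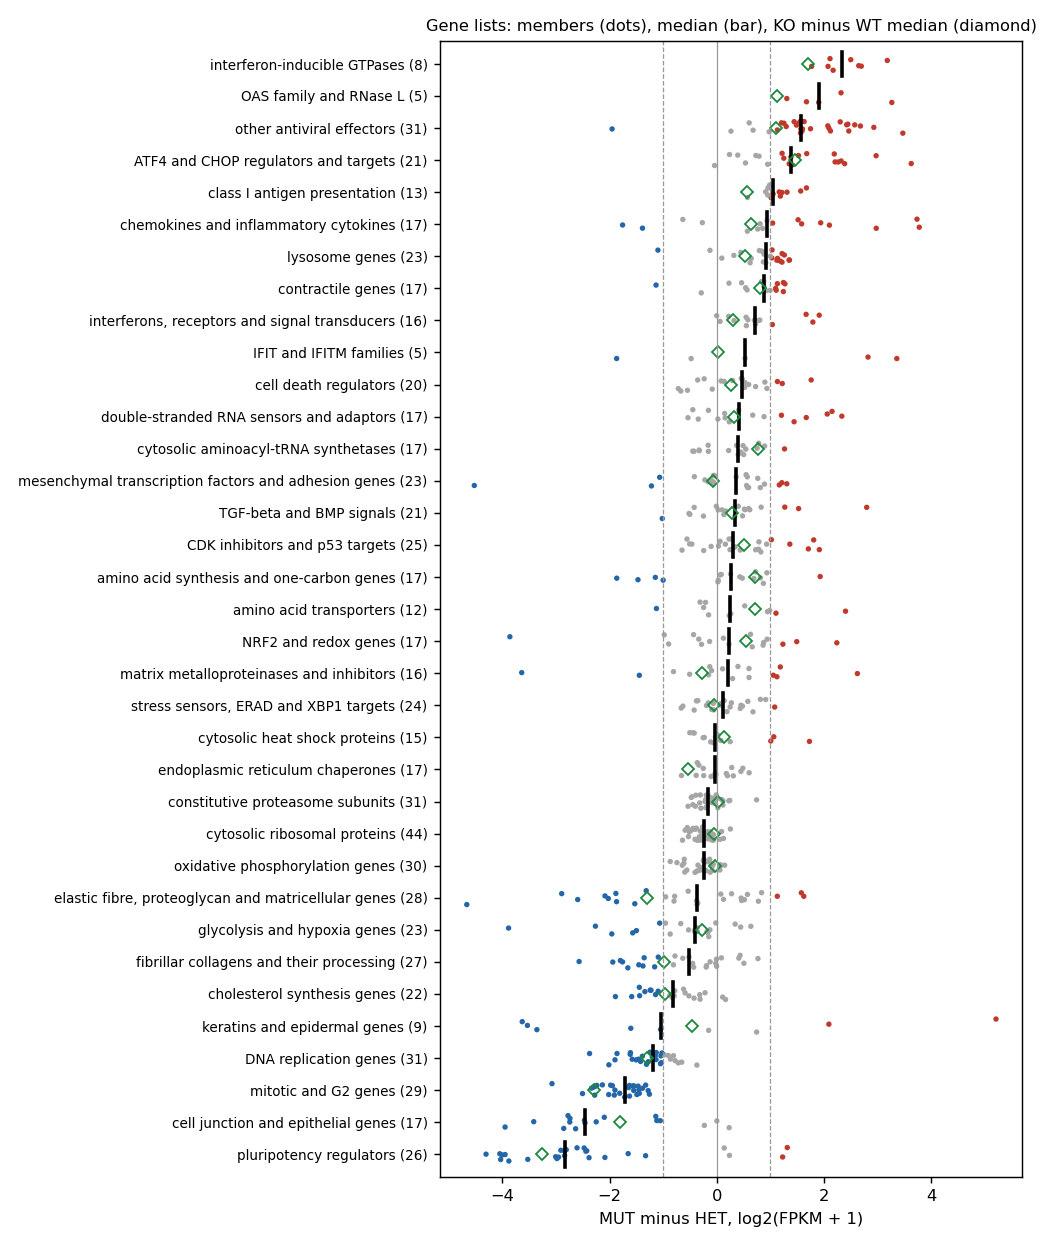
MUT minus HET difference of each list member (dots; red 2-fold or more higher, blue lower, grey between), with the list median (bar) and the KO minus WT median of the same members (open diamond); members at 5 FPKM are counted in brackets and dashed lines mark 2-fold. Interferon-inducible GTPases sit at the top with a median of 2.33 and pluripotency regulators at the bottom with -2.82, and the ribosomal, proteasome and respiratory lists stay within 2-fold.

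Outside the lists, the highest genes included Ppef1, a calcium-binding phosphatase, at 0.39 FPKM in HET and 11.2 in MUT, Coch, an extracellular protein named for the cochlea, at 3.4 and 33.1, Angptl7, an angiopoietin-like protein, at 16.2 and 114, Car6, a secreted carbonic anhydrase, at 0.14 and 6.52, and Cd274, which encodes PD-L1, at 1.22 and 13.6. Apol9b stood at 4.14 and 32.4 FPKM. Among the lowest, Agtr2, an angiotensin receptor of fetal tissue, stood at 178 and 9.35 FPKM, the cytochrome P450 genes Cyp4f39, Cyp2f2 and Cyp2s1 at 32.1 and 0.69, 16.9 and 0.08, and 32.3 and 1.32, and Atp2a3, a calcium pump, at 47.0 and 1.54. The neuropeptide gene Trh stood at 35.1 and 1.37 FPKM. Tac2, a tachykinin precursor, was at 13.8 FPKM in HET and was listed at 0 in MUT and in both KO libraries, against 1.85 and 2.41 in WT. Each of these genes lay on the same side in KO against WT.

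The comparison of KO with WT sets 4OHT against vehicle in cells without the E861A allele, and it shares no library with that of MUT and HET. Its cells are Fl/Fl and those of MUT and HET are Fl/E861A, so the contrasts differ in the number of floxed alleles as well as in E861A. Where the contrasts part, these cannot be told apart. Across the 9490 genes the differences had a Pearson r of 0.889 and a Spearman rho of 0.845, as a description over genes, which are not independent and share their lengths and levels. Of the 500 genes 2-fold or more higher in MUT, 308 were also 2-fold or more higher in KO, which is 61.6% of the MUT genes and 67.8% of the 454 KO genes. Of the 784 lower, 624 were also lower in KO, 79.6% of the MUT genes and 75.5% of the 827 KO genes. Genes higher in MUT had a median of 1.32 there and 1.15 in KO, and genes lower in MUT -1.51 there and -1.57 in KO. Of all 1284, 12 had the opposite sign in KO against WT, and only Nt5e was 2-fold or more the other way. Both contrasts also share 4OHT itself, so what they hold in common cannot be told apart from an effect of the drug or of Cre.

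The difference between both effects, (MUT - HET) - (KO - WT), was the one contrast tested. It was fitted with limma over all 6 libraries, with the lone HET and MUT libraries assumed to vary like the WT and KO replicates and 2 residual degrees of freedom. At a Benjamini-Hochberg adjusted p under 0.05, 385 of 9490 genes (4.06%) were called, 290 with the MUT effect above the KO effect (3.06%) and 95 below (1.0%). Of the 290, 128 were lower in both MUT and KO but less so in MUT, 51 were higher in both but more so in MUT, and 111 were lower in KO and higher in MUT. The gap between HET and WT was larger than that between MUT and KO in 159 of the 290 and in 42 of the 95. Over all 12266 genes tested, 492 (4.01%) were called. Leaving out WT 1 gave 239 of the 9490, leaving out WT 2 gave 231, and leaving out KO 1 or KO 2 gave 976 or 717. With no filter on low values 65 were called.

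Matrix genes held many of the calls, with the MUT effect above the KO effect. Over all genes of the comparison 3.06% were called above and 1.0% below. In the elastic fibre, proteoglycan and matricellular list 14 of 28 members were called above and none below, with 11 to 17 when 1 library was left out and 5 with no filter on low values. In the collagen list 9 of 27 were called above and 1, Col15a1, below, with 5 to 15 above on leaving out a library and 1 with no filter. Col3a1 (chromosome 1, 45311538 to 45349706, plus strand) was at 857 FPKM in HET and 245 in MUT, against 1054 and 953 in WT and 65.5 and 56.0 in KO, a difference of 2.23 (SE 0.19, limma adjusted p = 0.00049). Its MUT value lay between those of KO and of the vehicle libraries. Vcan, which encodes the proteoglycan versican, stood at 45.1 in HET and 49.3 in MUT, against 62.2 and 64.1 in WT and 16.1 and 15.5 in KO (2.06, SE 0.16, limma adjusted p = 0.000364), so it was low in KO and level in MUT. Postn, at 411 in HET and 54.5 in MUT, against 307 and 309 in WT and 9.73 in each KO library, differed by 1.95 (SE 0.16, limma adjusted p = 0.000399), and Mfap4, a microfibril protein, by 2.12 (SE 0.20, limma adjusted p = 0.000589). Of 16 matrix metalloproteinase and inhibitor genes, 5 were called above and 2 below, and 1 above and 0 below with no filter on low values. In that list the median of MUT minus KO was -0.005 and that of HET minus WT was -0.53, so HET stood apart from WT by more than MUT from KO. Mmp2 and Lum were also called, by 1.12 and 1.14 (limma adjusted p = 0.0139 and 0.00442). Eln was called by 1.42 (limma adjusted p = 0.0139) and stood at 1.61 FPKM in MUT and 0.91 and 0.81 in KO. Col15a1, at 7.83 in HET and 0.49 in MUT, against 1.84 and 1.81 in WT and 0.58 and 0.28 in KO, was higher in HET than in WT, and its call was lost with a pseudocount of 0.1 (limma adjusted p = 0.0974). The median of MUT minus KO was 0.67 in the elastic fibre list and 0.55 in the collagen list, and the fibroblast marker sum was 3414 FPKM in MUT against 2531 and 2542 in KO; the part of cell number in these differences was not tested.

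Some pluripotency and secreted genes also had a MUT effect above the KO effect, beside 3.06% called above over all genes of the comparison. Dnmt3l, a cofactor of DNA methylation, was at 11 FPKM in HET and 3.77 in MUT, against 24.5 and 15.3 in WT and 0.80 and 0.42 in KO (2.35, SE 0.34, limma adjusted p = 0.00456). Dppa5a, an RNA-binding protein of pluripotent cells, stood at 89.9, 15.9, 150 and 118, and 6.91 and 3.34 in the same order (2.09, SE 0.39, limma adjusted p = 0.018). Of 26 pluripotency genes at 5 FPKM, these 2 were called above and none below, with 2 to 12 above and 0 to 2 below on leaving out a library (12 and 2 without KO 1) and none with no filter on low values. Penk, which encodes proenkephalin, was at 462 FPKM in HET and 154 in MUT, against 1609 and 1452 in WT and 131 and 123 in KO (2.0, SE 0.18, limma adjusted p = 0.00049), and HET stood apart from WT by more than MUT from KO. Serpina3n, a protease inhibitor, stood at 43.6 in HET and 31.2 in MUT, against 48.9 and 41.8 in WT and 6.23 and 5.83 in KO (2.25, limma adjusted p = 0.000444), where the KO libraries stood apart. Agtr2 stood at 9.35 FPKM in MUT and 1.42 and 1.5 in KO (1.84, limma adjusted p = 0.000589).

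In the other direction, Nt5e, an ecto-nucleotidase (chromosome 9, 88327197 to 88372092, plus strand), was at 12.9 FPKM in HET and 4.70 in MUT, against 6.67 and 8.23 in WT and 21.9 and 21.4 in KO (-2.72, SE 0.20, limma adjusted p = 0.000364), lower in MUT and higher in KO. Igfbp2, a binding protein of insulin-like growth factors, stood at 126 in HET and 12.3 in MUT, against 86.5 and 74.3 in WT and 53.2 and 46.5 in KO (-2.58, SE 0.19, limma adjusted p = 0.000364). The epithelial genes Sfn, at 132 in HET and 11.9 in MUT, against 95 and 85.0 in WT and 29.1 and 29.6 in KO (-1.77, limma adjusted p = 0.000609), and Spint2, at 83.9, 14.3, 62.8 and 64.0, and 37.9 and 34.3 (-1.67, limma adjusted p = 0.000784), had the larger difference in MUT. Aldh1a1, which makes retinoic acid, stood at 12.3 in HET and 1.91 in MUT, against 4.31 and 5.10 in WT and 5.72 and 3.97 in KO (-2.21, limma adjusted p = 0.00175). Eif4a2, an initiation factor whose introns host small nucleolar RNAs, stood at 1035 in HET and 174 in MUT, against 859 and 585 in WT and 729 and 482 in KO (-2.30, SE 0.35, limma adjusted p = 0.00657); reads of host gene and hosted RNA cannot be told apart here. Eya2 (-1.93, limma adjusted p = 0.00551) and Tac2 (limma adjusted p = 0.00101) were called as well.

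Calls above stood at 1 of 17 sensors and adaptors, 2 of 5 OAS genes, 1 of 8 GTPases, 3 of 31 other antiviral genes, 2 of 16 receptors and transducers, 2 of 13 class I genes and 0 of 5 IFIT and IFITM genes, beside 3.06% over all genes; none was called below. On leaving out a library the OAS calls ranged from 2 to 4, the GTPase calls from 1 to 5, the class I calls from 1 to 9 and the IFIT and IFITM calls from 0 to 4. Among the named genes, Oasl2 was at 31.2 FPKM in HET and 119 in MUT, against 50.7 and 54.4 in WT and 100 and 89.3 in KO (1.06, SE 0.17, limma adjusted p = 0.00956), and Nlrc5 differed by 1.02 (limma adjusted p = 0.0125). Stat2, Irf7 and Ifi44 were called at adjusted p of 0.0377, 0.0241 and 0.0365 by limma, and each lost the call when 1 WT library was left out: Irf7 at 0.0828 without WT 1 and 0.0724 without WT 2, Stat2 at 0.066 without WT 1 and 0.124 without WT 2, and Ifi44 at 0.117 without WT 2. Of the 31 other antiviral genes 3 were called above and none below, and 0 to 16 on leaving out a library. Rsad2, Mx1, Cxcl10, Isg15 and B2m were not called (limma adjusted p = 0.231, 0.186, 0.436, 0.426 and 0.178). In each of these 10 genes the HET level was below both WT levels.

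In the ATF4 and CHOP list 1 of 21 members was called above and 3 below, with 0 to 1 and 2 to 4 on leaving out a library. Over all genes of the comparison 3.06% were called above and 1.0% below. Chac1 was at 8.54 FPKM in HET and 73.7 in MUT, against 7.28 and 7.85 in WT and 146 and 140 in KO. Its effect was therefore smaller in MUT (-1.10, SE 0.17, limma adjusted p = 0.00595). Ccl20, at 1.25, 16.6, 0.85 and 0.86, and 30.4 and 32.5 in the same order, also had the smaller effect in MUT (-1.16, SE 0.18, limma adjusted p = 0.00776). Ddit3 and Trib3 were not called (-0.17 and -0.54, limma adjusted p = 0.643 and 0.105). Cth was at 65.0 FPKM in HET and 28.8 in MUT, against 40.7 and 43.0 in WT and 35.91 and 37.65 in KO. It differed by -0.97 (limma adjusted p = 0.0113), with HET above both WT libraries and MUT below both KO libraries. Cdsn had a larger effect in MUT against HET than in KO against WT (1.30, SE 0.17, limma adjusted p = 0.00308), although its level in MUT, 139 FPKM, was below both KO levels, since HET was at 2.81 and WT at 16.8 and 18.4.

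**Figure D4:**
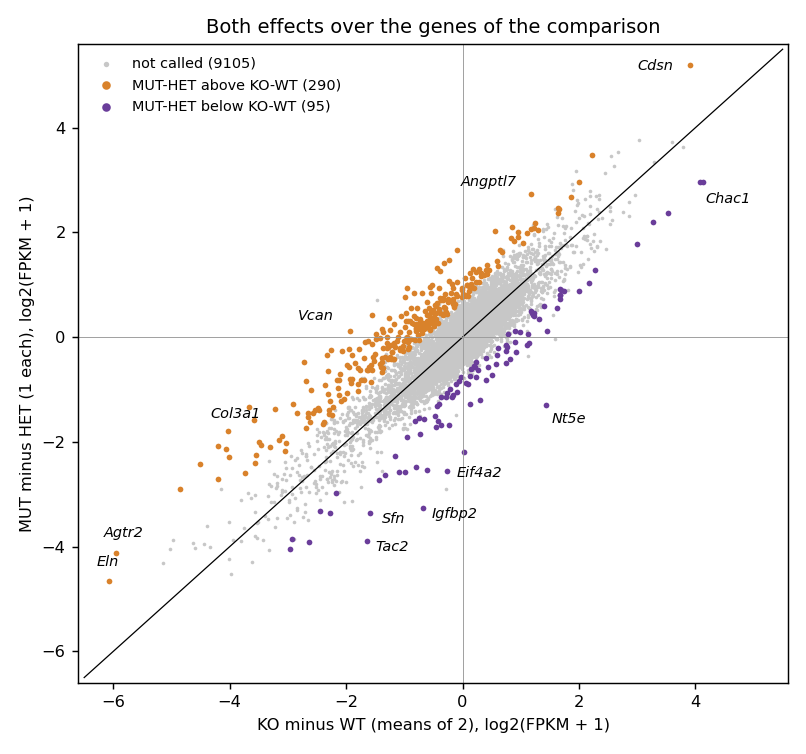
MUT minus HET (vertical) against KO minus WT (horizontal) for 9490 genes, log2(FPKM + 1); the line marks equal effects. Orange points are the 290 genes called with the MUT effect above and purple points the 95 below; Col3a1, Vcan and Eln lie above the line on the low side and Nt5e and Igfbp2 below it.

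**Figure D5:**
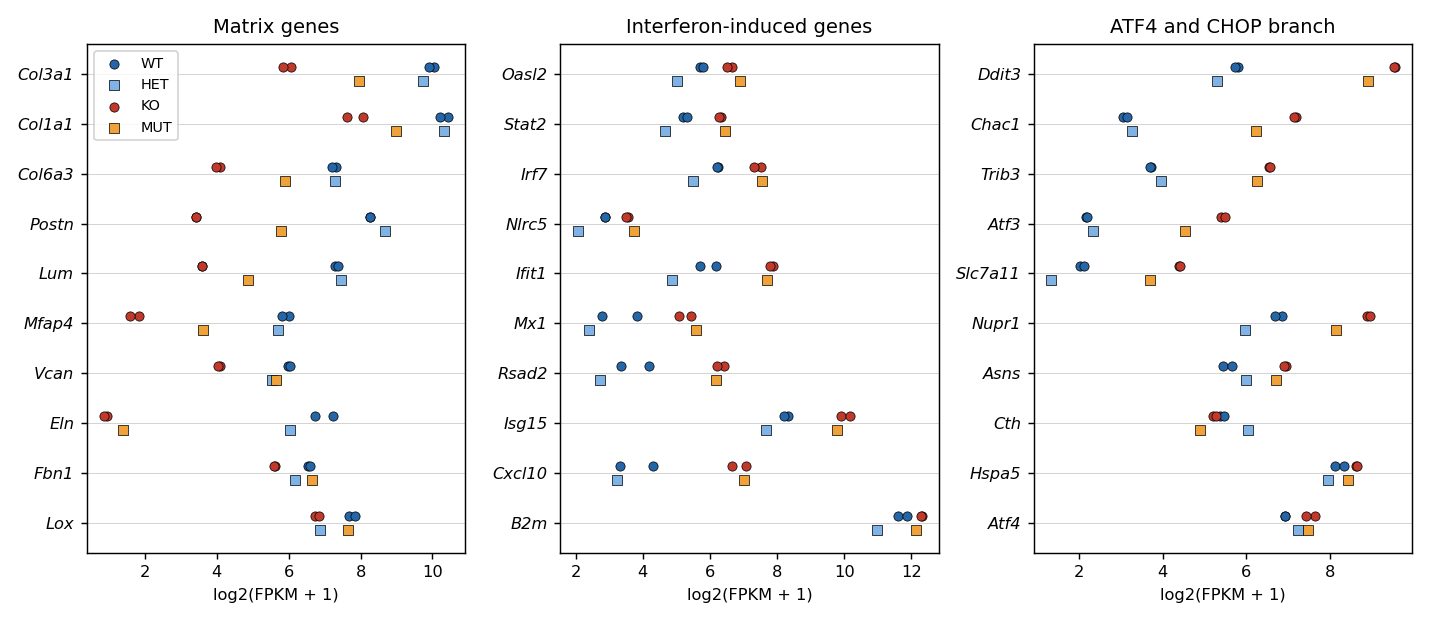
Level of 30 genes in each library as log2(FPKM + 1), circles for WT (blue) and KO (red, 2 libraries each) and squares for HET (light blue) and MUT (orange, 1 library each). In the matrix panel the MUT square of Col3a1, Postn and Mfap4 lies between KO and the vehicle libraries; in the interferon panel HET lies left of WT; in the stress panel MUT lies left of KO for Ddit3 and Chac1.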

How the data were processed

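Total RNA of 6 libraries (WT 2, KO 2, HET 1, MUT 1) was sequenced after ribosomal RNA removal, per the labels' protocols. FPKM values, written with decimal commas, were deposited by the authors, per the file headers. The submitters' processing notes name TopHat2 2.1.1, Bowtie2 2.3.0 and Cufflinks 2.2.1 plus 2 names of the build, GRCm38 and mm10, and give no role for either. The members and lists were chosen with earlier results of these data known.

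Unnamed rows were dropped, and a symbol on several rows kept the row with the highest mean. Values were taken as log2(FPKM + 1). A gene entered at 5 FPKM in HET or MUT, and differences of 2-fold or more were counted. The difference between both effects was fitted with limma 3.58.1 (R 4.3.3; 4 group means, 2 residual degrees of freedom, trended variances) over 12266 genes at 1 FPKM in at least 2 libraries, with Benjamini-Hochberg adjustment. The script was tested on simulated data. Gene positions come from GENCODE M 21 on GRCm38 and promoter sequences from RefSeq on GRCm38.p6. Tables were handled with Python 3.11.15, pandas 2.3.3 and scipy 1.17.1.

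Named genes were Adar and Adarb1, the 4 members of each main list and 2 of each other list with the largest difference, list members 2-fold apart against their list's median, the 20 highest and 20 lowest genes, and the 8 largest called differences each way. Other genes named were chosen after their values were seen. Alternatives covered the pseudocount, the filter, the scaling, repeated and shared rows, the fold, the variance trend, the replicate block and each left-out WT or KO library. A few genes that this rule names are not reported here.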

Additional observations from a re-analysis of the deposited data

Results flagged for a closer look

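Among the genes named by rule, the effect of MUT against HET differed from that of KO against WT in the limma test at an adjusted p under 0.05 for the genes listed here, each given as the difference of both effects on the log2(FPKM + 1) scale. The MUT effect was above the KO effect for Dnmt3l 2.35, Serpina3n 2.25, Col3a1 2.23, Mfap4 2.12, Dppa5a 2.09, Vcan 2.06, Msmp 2.01, Penk 2.0, Postn 1.95, Agtr2 1.84, Angptl7 1.57, Eln 1.42, Cdsn 1.30, Lum 1.14, Mmp2 1.12, Cx3cl1 1.07, Oasl2 1.06, Nlrc5 1.02, Casp12 0.96, Coch 0.95, Irf7 0.88, Ifi44 0.81, Ctsd 0.75 and Stat2 0.75. It was below the KO effect for Nt5e -2.72, Igfbp2 -2.58, Eif4a2 -2.30, Tac2 -2.25, Aldh1a1 -2.21, Eya2 -1.93, Sfn -1.77, Spint2 -1.67, Col15a1 -1.58, Egfl6 -1.27, Ccl20 -1.16, Aldoc -1.11, Chac1 -1.10, Ly6g6c -1.07, Cth -0.97, Gpx2 -0.94 and Mylk -0.86. Tac2 was listed at 0 in MUT and in both KO libraries, so its value depends on the pseudocount. With a pseudocount of 0.1 the calls of Aldoc, Casp12, Col15a1, Cx3cl1, Gpx2 and Ly6g6c were lost, with limma adjusted p of 0.0736, 0.0527, 0.0974, 0.0564, 0.797 and 0.334, and Egfl6 changed sign (0.21, limma adjusted p = 0.842). The value of Gpx2 was then -0.22 and that of Ly6g6c -0.72. With no filter on low values, of the genes listed here only Angptl7, Lum, Msmp, Postn, Spint2 and Vcan were called. Leaving out WT 1 ended the call for Ctsd, Cx3cl1, Gpx2, Irf7, Ly6g6c, Mylk and Stat2, with limma adjusted p of 0.196, 0.0985, 0.0777, 0.0828, 0.0746, 0.0612 and 0.066. Leaving out WT 2 ended it for Casp12, Coch, Ctsd, Ifi44, Irf7, Mylk and Stat2, with limma adjusted p of 0.0832, 0.0765, 0.195, 0.117, 0.0724, 0.077 and 0.124. The other calls listed held without either WT library. Without KO 1 or KO 2 the calls rose to 976 or 717 and all 385 calls held, so these settings do not set the listed genes apart.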

How the results depend on the processing

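The count of genes 2-fold or more apart (1284, with 500 higher, 784 lower and 1273 past the replicate rule) became 755, 287, 468 and 754 with a pseudocount of 5, and 680, 303, 377 and 678 at 20 FPKM. At 1.5-fold the counts were 2876, 1381, 1495 and 2747, and at 4-fold 299, 75, 224 and 298. The other alternatives stayed within 1.5 times, from 1055 to 1738 in all. The macrophage marker median, which rests on 1 gene at 5 FPKM (-2.45), was 0.22 at 1 FPKM and 0.057 with no filter.

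The test of the difference (385 called, 290 above, 95 below) gave 65, 55 and 10 with no filter on low values, and 144 below after quantile normalization. Leaving out 1 WT or KO library gave 231 to 976 called, 168 to 599 above and 55 to 377 below. With a pseudocount of 0.1 the difference of Egfl6 was 0.21, against -1.27. With the replicate block the counts were 976, 635 and 341, and all 385 genes were among them. Same-numbered WT and KO libraries deviated with a correlation of 0.18 over 12266 genes, and with 2 pairs the numbers are not shown to pair them.

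HET and MUT have 1 library each, and neither was left out in any alternative.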

Other observations

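Of the 12 genes or rows that were 2-fold apart between HET and MUT with the opposite sign between WT and KO, several were low in HET. Wisp2, a secreted matricellular protein, was at 31.6 FPKM in HET and 103 in MUT, against 72.3 and 66.0 in WT and 71.3 and 58.4 in KO. Hoxd13, a patterning factor of the distal limb, stood at 29.6 in HET and 62.4 in MUT, against 58.4 and 70.3 in WT and 63.3 and 57.2 in KO. Kitl, the ligand of the receptor KIT, stood at 11.9 in HET and 31.0 in MUT, against 30.4 and 34.9 in WT and 22.7 and 25 in KO. In Hoxd13 and Kitl the HET library was below the other 5 and MUT lay near the WT level. These genes were chosen after their values were seen.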
